A study of Mus musculus with 6 samples.

Results

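Integrins and the adhesion molecules that leukocytes use with them were described in N9 cells, an immortalised microglial line from mouse, by RNA-seq of cells left untreated and of cells stimulated with lipopolysaccharide (LPS), a cell wall component of Gram-negative bacteria. The members were taken by gene symbol from the table of read counts, and all 34 were found among its 54532 genes. They comprised 18 integrin α subunits, 8 integrin β subunits, 5 adhesion molecules of the immunoglobulin superfamily (Icam1, Icam2, Icam4, Vcam1 and Pecam1), and Selplg, Cd44 and Cd47. The comparison held 3 control libraries from untreated cells and 3 libraries from cells that had received 1 µg/ml LPS for 6 h. Both groups were the same line, grown in medium with serum. Nothing in the labels said that the libraries came from separate cultures, so the p-values measure the spread between these libraries, which may be technical.

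An integrin is a pair of 1 α and 1 β chain, and the pair decides what the cell can hold on to. The β1 chain joins many α chains and makes receptors for fibronectin, laminin and collagen. The β2 chain joins only the leukocyte α chains encoded by Itgal, Itgam, Itgax and Itgad, and those receptors bind intercellular adhesion molecules and complement. Integrins are held bent and inactive until a signal inside the cell brings talin and kindlin to the β tail, and once bound to a ligand they signal back through focal adhesion and Src family kinases. In microglia, β2 integrins serve in complement-driven uptake, and fibronectin receptors act when plasma proteins reach the brain.

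The libraries held between 16363767 and 17956772 counts, so that 3 counts corresponded to 0.161 to 0.190 CPM, a floor that covers counting error only. CPM, a gene's counts in every 1000000, is relative to each library's total after TMM scaling, a correction for differences in RNA composition. Of 15 markers of microglia and macrophages, 12 were expressed highly enough to be tested, and their sum was 3952 to 3982 CPM in control libraries and 4978 to 5171 CPM in LPS libraries. The brain microglial factor Sall1 had a single count in 1 library, and P2ry12 and Aif1 had 3 to 6 and 4 to 9 counts in a library. Tmem119, another microglial marker, had 142 to 177 counts. Some libraries held counts of genes known as markers of other cells, and where these counts came from was not tested. Of a list of 15 hepatocyte genes, 14 had 8, 315 and 499 counts in sum in control libraries 1 to 3 and 5, 6 and 14 in the LPS libraries. The remaining gene of that list, Hp, was summed apart and rose, with 883, 876 and 949 counts in control and 1965, 2115 and 2075 with LPS (log2 fold change 1.32 ± 0.05, edgeR adjusted p = 8.7e-12). Fibrillar collagens had 174, 4 and 110 counts in control and 113, 4 and 1 with LPS, and Krt8 with Krt19 had 7, 61 and 3 counts in control and 0, 0 and 63 with LPS. The part of these transcripts in the members' results was not tested, and results without control libraries 2 and 3 are given below.

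After LPS, members of each class rose and members of both integrin chain classes fell. A gene passed the test at an adjusted p under 0.05 in edgeR's quasi-likelihood test. Of the 34 members, 19 passed the filter on low counts and were tested, 9 of them rose, 2 fell, 8 did not pass the test, and 15 were too low to be tested. Among all 12296 genes tested, 18.7% rose and 15.7% fell. The study's threshold for a differentially expressed gene (DEG) adds an absolute log2 fold change over 1.5, and it was met by 1 member, Itga5, against 2.4% of all genes tested that were up-regulated DEG and 0.252% that were down-regulated DEG. The libraries of the groups did not overlap for 14 of the 19 tested members, and for 45.3% of all genes tested. The median log2 fold change was 0.15 over the 19 tested members and 0.0036 over all genes tested. With scaling by library totals without TMM, 8 members rose and 6 fell, and rises made up 31.3% of all calls against 54.3% with TMM. These 19 are the members that were high enough to test, so their counts do not speak for all 34. In sum, the members took 0.281%, 0.295% and 0.285% of all counts in untreated cells and 0.405%, 0.404% and 0.407% after LPS, and most of that difference lay in Cd44 and Itga5. In bulk RNA, more transcript per cell and more cells that make it cannot be told apart.

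**Figure D1:**
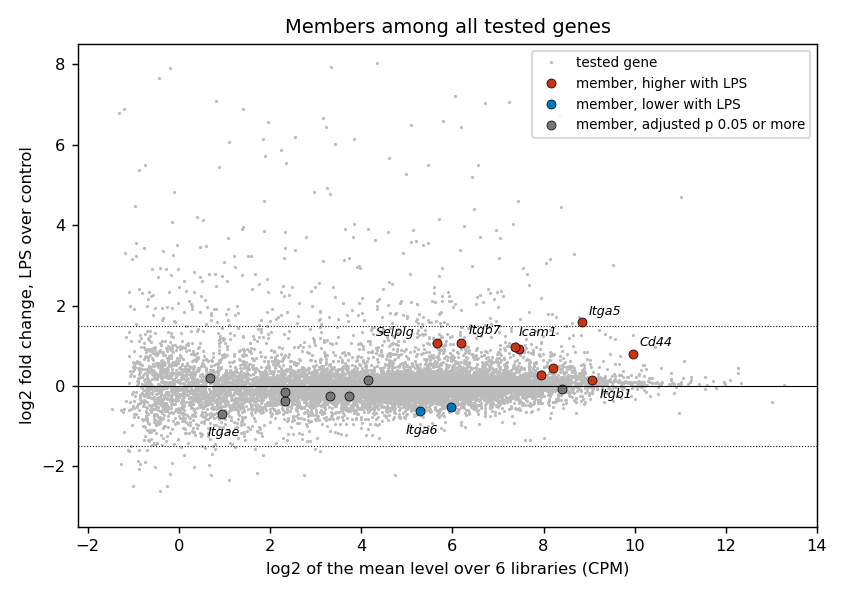
Log2 fold change of LPS over control against mean log2 CPM for the genes tested, in grey, with the 19 tested members in colour and 8 of them named. Itga5 lies above the line at 1.5, the other risers lie between 0.15 and 1.08, and the members with few counts have not passed the test.

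Promoter sequence is shown for the 3 members with the largest log2 fold changes upward that had an entry, and for Itgb5, a member that fell, so that risers and a faller can be read side by side. RefSeq promoter entries on GRCm38.p6, 250 bases before to 50 bases after the start, were matched for 22 of the 34 members and for 11 of the 19 tested. The windows are chr15:103366742-103367041 on the minus strand for Itga5, chr15:102231886-102232185 on the minus strand for Itgb7, chr9:21015690-21015989 on the plus strand for Icam1, and chr16:33829415-33829714 on the plus strand for Itgb5. Each is written 5′ to 3′ in the direction of the gene. Capitals mark a match, on either strand, to PU.1 (GAGGAA), AP-1 (TGANTCA), IRF (TTCNNTTTC), the NF-kappaB consensus of that name or the kappaB variant GGAANTTCC.
Itga5: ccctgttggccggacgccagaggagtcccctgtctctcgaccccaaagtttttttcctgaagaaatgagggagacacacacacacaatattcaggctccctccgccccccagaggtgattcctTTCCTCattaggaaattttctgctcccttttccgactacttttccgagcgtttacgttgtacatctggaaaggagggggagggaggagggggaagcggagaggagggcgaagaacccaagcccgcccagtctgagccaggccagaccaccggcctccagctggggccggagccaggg
Itgb7: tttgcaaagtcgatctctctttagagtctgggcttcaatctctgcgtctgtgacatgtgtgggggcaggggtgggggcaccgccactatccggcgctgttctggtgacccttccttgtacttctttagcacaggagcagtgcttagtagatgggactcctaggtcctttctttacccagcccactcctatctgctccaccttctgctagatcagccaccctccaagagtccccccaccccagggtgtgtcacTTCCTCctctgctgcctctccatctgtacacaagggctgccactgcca
Icam1: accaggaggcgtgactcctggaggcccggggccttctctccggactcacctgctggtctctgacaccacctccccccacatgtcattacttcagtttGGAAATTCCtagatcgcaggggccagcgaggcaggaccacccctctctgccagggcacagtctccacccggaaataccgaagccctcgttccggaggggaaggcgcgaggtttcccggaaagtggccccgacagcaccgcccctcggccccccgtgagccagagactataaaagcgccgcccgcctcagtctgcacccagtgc
Itgb5: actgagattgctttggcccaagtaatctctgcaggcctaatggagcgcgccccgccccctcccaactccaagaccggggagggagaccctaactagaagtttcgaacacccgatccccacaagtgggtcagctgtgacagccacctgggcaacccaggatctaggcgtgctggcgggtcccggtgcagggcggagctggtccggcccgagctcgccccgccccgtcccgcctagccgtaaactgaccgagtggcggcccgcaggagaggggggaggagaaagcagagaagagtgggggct

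The PU.1 letters, those of the myeloid master regulator, stood in the Itga5 window with their first base at -127 from the start and in the Itgb7 window at 2, both times on the strand opposite to the gene. Of the 7 rising members with an entry, 4 held GAGGAA, as did 28.3% of all 32851 promoters of the table. None of those 7 held AP-1 letters, IRF letters or the NF-kappaB consensus, which were in 7.81%, 8.56% and 8.46% of all promoters. GGAANTTCC, a kappaB variant outside that consensus, was chosen after the promoters had been read. It was in the Icam1 window at -153, in no other member's window, and in 0.928% of all promoters. The GC box GGGCGG, which is not capitalised, was in 6 of those 7 windows and in 35.7% of all promoters, and the Itgb5 window held 3. Matches of different motifs did not overlap in the 4 windows printed. A match is a run of letters and no evidence of binding.

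The levels of the members spanned a wide range before any stimulus. Divided by gene length, so that genes can be compared, the control mean was highest for Itgb1 at 125 ± 2.93 CPM per kb (SD, n = 3), followed by Cd44, the hyaluronan receptor, at 107 ± 2.35 CPM per kb and Itgb2 at 82.3 CPM per kb. Itga5, the α chain of the fibronectin receptor, followed at 46.5 CPM per kb and Itgav, a chain of vitronectin receptors, at 32.4 CPM per kb. Icam1, Itgb5 and Cd47 lay at 25.9, 20.8 and 19.5 CPM per kb. Itgb7 at 17.0 and Itga4 at 16.0 CPM per kb came next, with libraries that overlapped. Below 10 CPM per kb stood Selplg at 7.67, Itga6 at 5.22, Icam2 at 2.97 and Itgam at 2.89 CPM per kb, of which the last pair overlapped. Itga7, Itgal, Itgb4, Itgae and Itgax closed the order at 2.09, 1.65, 0.754, 0.523 and 0.311 CPM per kb. The libraries of Itgb4 and Itgae overlapped.

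With LPS the order at the top changed. Cd44 was the highest at 186 ± 4.43 CPM per kb, and Itga5 at 139 and Itgb1 at 138 CPM per kb overlapped just below it. Itgb2 followed at 112, Icam1 at 50.5, Cd47 at 36.9 and Itgb7 at 35.8 CPM per kb. Itgav at 30.5 CPM per kb thus stood in the eighth place, against the fifth of the control order, while its own difference did not pass the test. Itgam, Itga7 and Icam2 overlapped in their libraries at 2.41, 2.30 and 2.30 CPM per kb. The α chain of the complement receptor, Itgam, is a customary microglial marker, and in both groups its transcript stood far below that of its β chain, Itgb2.

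**Figure D2:**
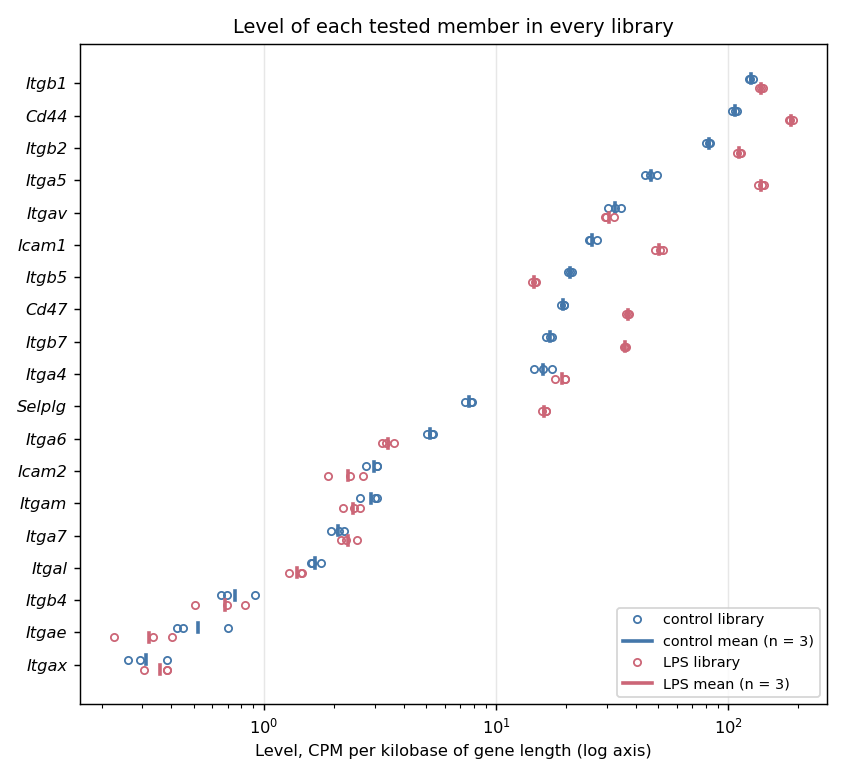
CPM per kb of gene length, on a log axis, in each of the 3 control and 3 LPS libraries for the 19 tested members, in the order of their control means. Itgb1, Cd44 and Itgb2 lead in control cells, and Itga5 rises from 46.5 to a mean of 139 CPM per kb with LPS.

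Among the 18 integrin α subunits, 9 were tested, of which 2 rose, 1 fell and 6 did not pass. Of all genes tested, 18.7% rose and 15.7% fell. The median log2 fold change of the 9 was -0.087, beside 0.0036 for all genes tested. Itga5 (ENSMUSG00000000555, chr15:103344286-103366763, minus strand, GRCm38) pairs with β1 to make the classical fibronectin receptor. It stood at 216, 244 and 228 CPM in control libraries and at 662, 691 and 701 CPM with LPS. The groups lay far apart, with no LPS library near the control ones. The rise was 2.99-fold, a log2 fold change of 1.58 ± 0.05 (SE), with an adjusted p of 1.7e-12 by edgeR's quasi-likelihood test. The log2 fold change was close to the DEG threshold of 1.5. It was 1.48 with scaling by library totals alone, and Itga5 was then no DEG, and a test against 1.5 itself did not call it.

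Itga4 (ENSMUSG00000027009, chr2:79255426-79333123, plus strand) joins β1 or β7 and binds Vcam1 and fibronectin. Its levels were 204, 244 and 222 CPM in control and 250, 275 and 278 CPM with LPS. All LPS libraries were higher, though the highest control library came within a few CPM of the lowest LPS library. The log2 fold change was 0.26 ± 0.06 with an edgeR adjusted p of 0.0038. Itga6 (ENSMUSG00000027111, chr2:71745616-71858416, plus strand), the laminin-binding chain, went the other way. It was at 45.3, 47.7 and 48.3 CPM in control and at 29.1, 32.8 and 30.3 CPM with LPS. The groups were clearly separate, with a log2 fold change of -0.61 ± 0.07 and an edgeR adjusted p of 4.7e-06.

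Itgav (ENSMUSG00000027087), which pairs with β1, β3, β5, β6 or β8, had 325, 370 and 349 CPM in control and 319, 318 and 345 CPM with LPS. These overlapped, with a log2 fold change of -0.09 ± 0.05 and an adjusted p of 0.22. Leaving out control library 1 gave -0.14 with an adjusted p of 0.0303, and scaling by library totals gave -0.19 with 0.0112. Itga7 (ENSMUSG00000025348), another laminin-binding chain, had 17.0, 15.8 and 17.9 CPM in control and 17.3, 20.3 and 18.3 CPM with LPS. Its groups overlapped, and the log2 fold change was 0.14 ± 0.10 with an adjusted p of 0.29.

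The leukocyte α chains that pair with β2 were low and none passed the test. Itgam (ENSMUSG00000030786), of complement receptor 3, had 15.1, 15.4 and 12.96 CPM in control and 10.97, 12.3 and 13.1 CPM with LPS. Its groups overlapped, with a log2 fold change of -0.26 ± 0.11 and an adjusted p of 0.096. Itgal (ENSMUSG00000030830), of LFA-1, the receptor for Icam1, had 11.6, 10.4 and 10.5 CPM in control and 9.44, 9.57 and 8.40 CPM with LPS. Every LPS library of Itgal was below every control library, but the log2 fold change of -0.25 ± 0.12 had an adjusted p of 0.12. Itgax (ENSMUSG00000030789), the dendritic cell marker CD11c, had 1.40, 1.25 and 1.83 CPM in control and 1.84, 1.83 and 1.46 CPM with LPS, with an adjusted p of 0.66. With scaling by library totals, Itgam had a log2 fold change of -0.35 with an adjusted p of 0.0218, and Itgal one of -0.35 with 0.0284. On chromosome 7, 11.1 kb separate Itgam from Itgax and 3.72 kb separate Itgax from Itgad, while Itgal lies 728 kb from Itgam.

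Itgae (ENSMUSG00000005947), which joins β7 to make the E-cadherin receptor, had 3.21, 1.93 and 2.04 CPM in control and 1.84, 1.04 and 1.52 CPM with LPS. The libraries did not overlap, yet the log2 fold change of -0.70 ± 0.31 had an adjusted p of 0.093. It was -0.45 without control library 1 and -0.90 without LPS library 1. Itgae overlaps Haspin on the opposite strand, Haspin had up to 619 counts and Itgae as few as 17, and the counting's use of strand was not given in the sources used here. The overlap is one of gene spans, and overlap of exons was not looked at. Reads of Haspin may therefore be among those of Itgae, which was not tested.

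**Figure D3:**
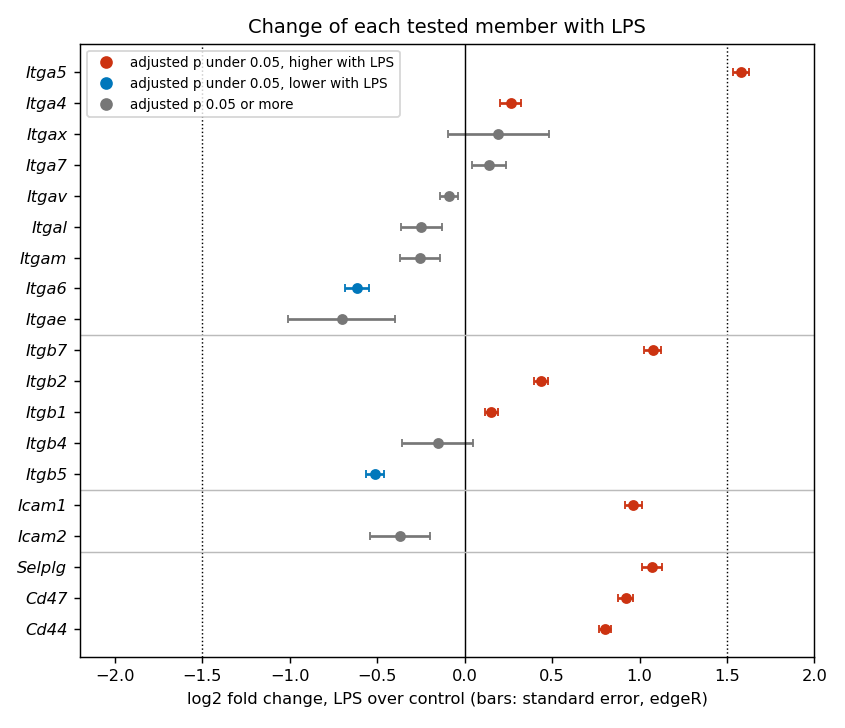
Log2 fold change of LPS over control with its SE for the 19 tested members by class, with those that passed the test marked. Itga5 stands at 1.58 and Itga6 at -0.61, and the low members have the widest errors, up to 0.31.

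Among the 8 β subunits, 5 were tested, of which 3 rose, 1 fell and 1 did not pass. Among all genes tested, 18.7% rose and 15.7% fell. The call of 1 of the 3 that rose, Itgb1, was lost with scaling by library totals, as given below. Itgb7 (ENSMUSG00000001281, chr15:102215995-102231944, minus strand), the partner of α4 and αE on lymphocytes that home to the gut, showed the largest log2 fold change of the 5. Its levels were 47.3, 48.2 and 45.6 CPM in control and 99.3, 98.3 and 100 CPM with LPS. The libraries within each group were close together and the groups far apart. The rise was 2.11-fold, with a log2 fold change of 1.08 ± 0.05 and an edgeR adjusted p of 2e-10. Itgb7 lies on the same chromosome as Itga5, 1112341 bases away.

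Itgb2 (ENSMUSG00000000290, chr10:77530252-77565708, plus strand), the common chain of the leukocyte integrins, also rose. It stood at 246, 252 and 256 CPM in control and at 345, 342 and 333 CPM with LPS. The groups did not overlap, and the log2 fold change was 0.44 ± 0.04 with an edgeR adjusted p of 6.6e-07. Thus the shared β2 chain rose while none of its α partners passed the test. Whether the change of Itgb2 differed from that of each partner was not tested.

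Itgb1 (ENSMUSG00000025809, chr8:128685654-128733200, plus strand) had 499, 522 and 505 CPM in control and 575, 555 and 564 CPM with LPS. The groups were separate by a small margin, with a log2 fold change of 0.15 ± 0.04 and an adjusted p of 0.0047. This rise rests on the scaling. The unscaled counts were 8546, 9206 and 9383 in control and 9067, 9100 and 9270 with LPS, which overlapped, and with scaling by library totals the log2 fold change was 0.05 with an adjusted p of 0.266.

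Itgb5 (ENSMUSG00000022817, chr16:33829665-33949338, plus strand), which joins αv to make a vitronectin receptor used in the uptake of dying cells, fell. Its levels were 72.8, 75.3 and 73.8 CPM in control and 50.6, 52.6 and 52.2 CPM with LPS. The groups were well separated, with a log2 fold change of -0.51 ± 0.05 and an edgeR adjusted p of 1.3e-06. Itgb4 (ENSMUSG00000020758), the hemidesmosome chain, had 6.42, 4.88 and 4.57 CPM in control and 5.83, 4.88 and 3.53 CPM with LPS. Its libraries overlapped, with a log2 fold change of -0.16 ± 0.20 and an adjusted p of 0.61.

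The make-up of the α chains that can join β1 was described by each gene's share of their summed CPM per kb. Itga5 held 45.7%, 45.5% and 45.2% of the sum in control libraries and 71.7%, 71.7% and 71.1% in LPS libraries. The mean share went from 45.5 ± 0.255% to 71.5 ± 0.332% (SD, n = 3), a difference of 26.0 points. An exact two-sided permutation test over the libraries gave p = 0.1, the smallest p that 3 against 3 libraries allow. Itgav went from 31.7% to 15.7%, although its own level did not pass the test, and Itga4 went from 15.6% to 9.86%, although its own level rose. Itga7 went from 2.05% to 1.18%, although its own level did not pass the test, and Itga6, whose level fell, went from 5.11% to 1.75%, each with an exact permutation p of 0.1. The sum itself was 95.9, 109 and 102 CPM per kb in control and 187, 196 and 200 CPM per kb with LPS. Itgb1 was thus 1.27, 1.18 and 1.21 times the sum of its possible α partners in control libraries and 0.752, 0.695 and 0.692 times with LPS. The groups did not overlap in this ratio of transcript levels, and the chains at the cell surface were not measured in these libraries.

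The make-up of the α chains that join β2 was described in the same way. Itgam held 59.1%, 61.9% and 56.5% of their sum in control libraries and 54.5%, 57.0% and 62.2% with LPS, which overlapped. The mean share differed by -1.27 points, from 59.2 ± 2.72% to 57.9 ± 3.92% (SD, n = 3), with an exact permutation p of 0.8. The direction turned without control library 2, at 0.113 points, and without LPS library 1, at 0.413 points, and the difference was -3.43 points without LPS library 3 and -2.61 points without control library 3. Itgal held 33.97% in control and 33.4% with LPS, with an exact permutation p of 0.7. Itgax held 6.44% and 8.56%, with an exact permutation p of 0.2. The sum was 5.10, 4.95 and 4.57 CPM per kb in control and 4.003, 4.30 and 4.19 CPM per kb with LPS. Itgb2 exceeded it 15.8, 16.7 and 18.3 times in control libraries and 28.3, 26.0 and 26.1 times with LPS.

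**Figure D4:**
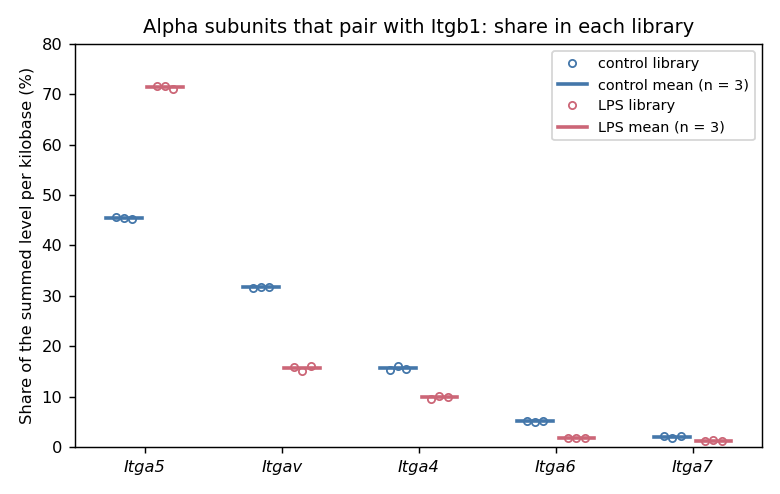
Share, in percent, of the summed CPM per kb of the possible α partners of β1, with 1 point for each of the 6 libraries and a bar for each group's mean, for the 5 tested partners. Itga5 goes from a mean of 45.5% to 71.5%, and Itgav from 31.7% to 15.7%.

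Of the 5 immunoglobulin superfamily molecules, 2 were tested, of which 1 rose and 1 did not pass. Of all genes tested, 18.7% rose and 15.7% fell. Icam1 (ENSMUSG00000037405, chr9:21015985-21028817, plus strand), the ligand of the β2 integrins, rose. It stood at 119, 110 and 109 CPM in control and at 221, 228 and 211 CPM with LPS. Every LPS library was well above the control libraries. The log2 fold change was 0.96 ± 0.05, a 1.95-fold rise, with an edgeR adjusted p of 8.2e-10. Its neighbour Icam4, which starts 555 bases after Icam1 ends and is known from red cells, had no count in any library. Icam2 (ENSMUSG00000001029), a β2 ligand of resting endothelium and leukocytes, had 5.25, 5.84 and 5.86 CPM in control and 5.07, 4.45 and 3.59 CPM with LPS. All LPS libraries of Icam2 were lower, but the log2 fold change of -0.37 ± 0.17 had an adjusted p of 0.11, or -0.47 with 0.0418 under scaling by library totals.

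Selplg, Cd44 and Cd47 all rose, beside 18.7% of all genes tested that rose and 15.7% that fell. Selplg (ENSMUSG00000048163, chr5:113818536-113832644, minus strand), the mucin that selectins bind, had 33.7, 33.2 and 31.4 CPM in control and 69.9, 69.7 and 67.1 CPM with LPS. The groups lay far apart, with a log2 fold change of 1.07 ± 0.06 and an edgeR adjusted p of 1.4e-09. Cd47 (ENSMUSG00000055447, chr16:49800533-49915010, plus strand), an integrin-associated protein that signals "do not eat" to phagocytes, had 123, 120 and 124 CPM in control and 232, 228 and 234 CPM with LPS. Its log2 fold change was 0.92 ± 0.04 with an edgeR adjusted p of 2.5e-10, and the groups did not overlap. Cd44 (ENSMUSG00000005087, chr2:102811141-102901665, minus strand) had 726, 736 and 705 CPM in control and 1292, 1249 and 1235 CPM with LPS. The groups were again far apart, with a log2 fold change of 0.80 ± 0.03 and an edgeR adjusted p of 6.4e-11.

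The remaining 15 members were not tested, and 11 of them had at most 3 counts in every library. Itga2 and Icam4 had no count at all, a result that allows up to 0.161 to 0.190 CPM in a library. Itga3, Itga8, Itga9, Itga1 and Itga11, which make collagen, laminin and tenascin receptors, reached 3, 3, 1, 1 and 3 counts at most. Itgb3, the β chain of platelets and osteoclasts, had 2, 0 and 2 counts in control and 0, 0 and 1 with LPS. Vcam1, the α4β1 ligand of activated endothelium, had 1, 0 and 0 counts in control and 1, 0 and 1 with LPS. Itgad had 2, 3 and 0 counts in control and 0, 1 and 0 with LPS, and Itgb6 had 1 count in 1 library. A difference between groups was not detectable at this depth for these members.

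The other 4 untested members had more than 3 counts in at least 1 library. Itgb8 (ENSMUSG00000025321), the chain that activates latent TGF-β with αv, had 2, 4 and 0 counts in control and 16, 14 and 5 counts with LPS. Its LPS libraries were all higher than its control libraries. Other fits that kept Itgb8 gave log2 fold changes of 2.01 to 3.51 with adjusted p of 0.00506 to 0.143, and 5 of 7 called it. It was not called without control library 3, at an adjusted p of 0.0586, nor with control library 1 alone, at 0.143. Itga2b, the α chain of platelets, had 7, 6 and 3 counts in control and 6, 5 and 16 with LPS. Pecam1, of endothelium and platelets, had 3, 1 and 3 counts in control and 3, 6 and 4 with LPS, and Itga10 had 3, 5 and 0 in control and 0, 1 and 5 with LPS. Markers of cells that use these genes were looked at as well. Of 12 endothelial markers Cldn5, Emcn, Robo4 and Ptprb had no count in any library, as did Ppbp and Gp1bb among the megakaryocyte markers, and their sums were 113 to 122 and 6.19 to 8.45 CPM in control and 106 to 119 and 6.08 to 8.10 CPM with LPS. The endothelial sum came mainly from Flt1 and Vwf. Among its genes, Flt1 fell, with a log2 fold change of -0.35 ± 0.06 (edgeR adjusted p = 0.00046), and Kdr rose from low counts of 2, 2 and 8 in control to 13, 19 and 21 with LPS (edgeR adjusted p = 0.0035). Cdh5 was not tested and had 5, 2 and 5 counts in control and 10, 13 and 9 with LPS. The 8 neutrophil markers summed to 4.03 to 4.65 CPM in control and 10.5 to 12.1 CPM with LPS, most of it S100a8, the only one tested, which rose from a mean of 4.002 to 10.7 CPM, while Ly6g had no count. The 10 T and NK cell markers summed to 6.19 to 7.47 CPM in control and 8.96 to 12.04 CPM with LPS, most of it Lck, which rose from a mean of 6.27 to 9.67 CPM. Cd2, the other tested marker of that list, did not pass the test at a log2 fold change of -0.41, and Cd3e, Cd3g, Cd8a, Klrb1c and Ncr1 had no count. The part of these genes' cells in the members' results was not tested.

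Errors followed the counts. The SE of the log2 fold change was 0.03 to 0.07 for Itgav and the 11 members that passed the test, and 0.10 to 0.31 for the 7 other tested members, which had at most 20.3 CPM in any library. Control library 1 held few counts of the hepatocyte genes other than Hp but the most collagen counts. Against it alone, Itga5 had a log2 fold change of 1.66. The spread in that fit came from the LPS libraries only, and the lone control library was assumed to vary like them.

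The genes that set integrin activity from inside the cell were counted as a list of 22 regulators, of which 17 were tested, 6 rose, 2 fell and 9 did not pass, beside 18.7% of all genes tested that rose and 15.7% that fell. The list holds activators and also genes known to restrain integrins, such as Cytip and Flna, and Flna was among the 6 that rose. The median log2 fold change was 0.01, beside 0.0036 for all genes tested. Rap1b, a small GTPase that brings talin to the membrane, had 267, 268 and 271 CPM in control and 477, 457 and 452 CPM with LPS. The groups did not overlap, with a log2 fold change of 0.78 ± 0.04 and an edgeR adjusted p of 6.7e-10. Rapgef1, an activator of Rap1, rose by a log2 fold change of 0.42 ± 0.04 (adjusted p = 7.8e-07), and Fyb, an adaptor of the same route, by 0.41 ± 0.04 (adjusted p = 4.4e-06). Cytip, which restrains β2 adhesion through cytohesin, had 9.98, 10.9 and 10.7 CPM in control and 4.25, 3.23 and 4.75 CPM with LPS. Its log2 fold change was -1.37 ± 0.15 with an edgeR adjusted p of 5.7e-06, and Skap2, an adaptor of Fyb, had -0.16 ± 0.05 with 0.023.

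Among 30 adaptors and kinases of adhesion sites, 28 were tested, 11 rose, 3 fell and 14 did not pass, beside 18.7% and 15.7% of all genes tested, with a median log2 fold change of 0.09. The kinases Src and Syk relay integrin signals in myeloid cells. Src had 19.0, 19.6 and 19.3 CPM in control and 54.7, 58.5 and 57.6 CPM with LPS, a log2 fold change of 1.56 ± 0.07 (edgeR adjusted p = 9.1e-11). Src was a DEG, and the libraries of its groups were far apart. Syk stood at 157 ± 4.15 CPM in control and at 336 ± 8.20 CPM with LPS (SD, n = 3), and its log2 fold change was 1.10 ± 0.04 (edgeR adjusted p = 3.7e-11). Bcar1, a docking protein phosphorylated by Src, stood at 5.91 ± 1.16 CPM in control and at 11.4 ± 1.37 CPM with LPS (SD, n = 3), and its log2 fold change was 0.95 ± 0.15 (edgeR adjusted p = 0.00022). The groups of Syk and Bcar1 did not overlap either. The fallers were Nedd9, a docking protein, at -1.03 ± 0.24 (adjusted p = 0.0036), Tns1, an actin linker, at -0.54 ± 0.13 (adjusted p = 0.0049), and the kinase Fyn at -0.21 ± 0.07 (adjusted p = 0.034).

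Of 19 ligands in matrix and plasma, 8 were tested, 1 rose, 1 fell and 6 did not pass, shares near or under the 18.7% and 15.7% of all genes tested, with a median log2 fold change of -0.06. Lamc1, a laminin chain, had 844, 1036 and 973 CPM in control and 1237, 1408 and 1434 CPM with LPS. The groups did not overlap, with a log2 fold change of 0.52 ± 0.07 and an edgeR adjusted p of 1.9e-05. Spp1, osteopontin, a ligand of αv integrins and of Cd44, had 9483, 9418 and 9338 CPM in control and 7517, 6983 and 6926 CPM with LPS. It was lower in every LPS library, with a log2 fold change of -0.40 ± 0.03 and an edgeR adjusted p of 1.7e-08. Fn1, the ligand of the Itga5 receptor, had 19, 5 and 52 counts in control and 19, 6 and 2 with LPS and did not pass the test.

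Of 33 other adhesion molecules and partners, 18 were tested, 9 rose, 5 fell and 4 did not pass, beside the same 18.7% and 15.7%, with a median log2 fold change of 0.16. Plaur, the urokinase receptor, which associates with integrins, had 44.5, 41.3 and 44.0 CPM in control and 125, 123 and 124 CPM with LPS. It was a DEG, with a log2 fold change of 1.52 ± 0.05 (edgeR adjusted p = 3.9e-12). Ezr, which ties Cd44 and Icam1 to actin, stood at 150 ± 3.00 CPM in control and at 355 ± 4.94 CPM with LPS (SD, n = 3), and its log2 fold change was 1.25 ± 0.04 (edgeR adjusted p = 5.2e-12). Icam5, a β2 ligand known from neurons, was low at 1.18 CPM in control and 2.47 CPM with LPS, with a log2 fold change of 1.06 ± 0.28 (edgeR adjusted p = 0.0091). Sirpa, the receptor of Cd47, had 545, 558 and 552 CPM in control and 394, 406 and 403 CPM with LPS. It thus fell where Cd47 rose, with a log2 fold change of -0.46 ± 0.04 and an edgeR adjusted p of 1.1e-07. The tetraspanin Cd81 had -0.35 ± 0.05 (adjusted p = 8.6e-05) and Hmmr, another hyaluronan receptor, -0.32 ± 0.05 (adjusted p = 0.00019).

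**Figure D5:**
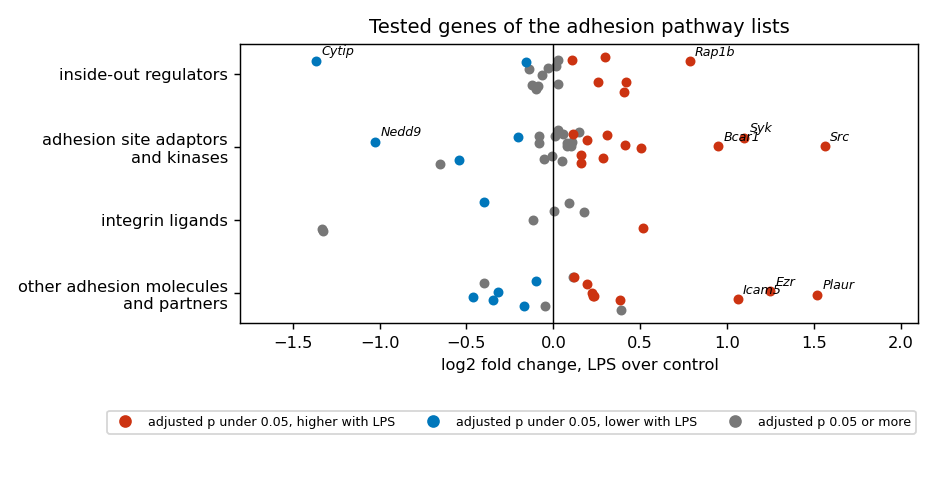
Log2 fold change of LPS over control for the tested genes of the 4 partner lists, one point a gene, with those that passed the test marked. Src at 1.56 and Plaur at 1.52 are the highest, and Cytip at -1.37 is the lowest of the genes that passed.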

How the data were processed

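RNA-seq was measured in 3 control and 3 LPS libraries, grouped by the labels. The authors deposited read counts per gene, whole numbers without normalization, and gene lengths in bases. The submitters' processing notes name featureCounts 1.5.0-p3 and mm10, while the aligner and the use of strand were not given in the sources used here. Another table holds the fold changes and p-values of the authors' own comparison, which were not used, nor were its 18 further columns of sample values. All counts were named by gene.

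LPS was compared with control by the quasi-likelihood test of edgeR 4.0.16 (R 4.3.3), with TMM scaling, filterByExpr, a prior count of 0.125 and Benjamini-Hochberg adjustment over all 12296 genes tested. The SE is the log2 fold change divided by the square root of F. CPM used TMM-scaled totals, and CPM per kb also the deposited length. Shares were compared with exact permutation tests. The fit was checked on simulated data with known fold changes. Alternatives were size factors, DESeq2 1.42.0, low-count filters, robust dispersion, a test against 1.5, a replicate block and leaving out each library. Library totals without TMM and control library 1 alone were added after seeing the data.

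The members and lists were chosen with earlier results of these data known. Every tested member is named, and up to 3 partners per list and direction with the largest changes among those with an adjusted p under 0.05. A gene of the partner lists and a marker gene are not reported here. Coordinates are those deposited, which GENCODE gives as GRCm38. Python 3.11.15 and matplotlib 3.10.9 drew the figures. Replicates differed beyond sampling noise.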

Additional observations from a re-analysis of the deposited data

How the results depend on the processing

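Across 12 alternatives set for each of the 19 tested members, 227 of 228 values stayed on the same side of the threshold, the exception being Itgav without control library 1, and 227 kept their direction, the exception being Itgb4, which did not pass the test in either fit, at 0.02 without LPS library 3. The count of members that rose was 9 to 10 and of those that fell 2 to 3 when 1 library was left out. Members that were DEG upward numbered 1 to 2 when 1 library was left out, 2 with DESeq2 and 2 with no filter on low counts, the second being Itgb8, which those fits tested, and 0 in the test against 1.5 and with library totals without TMM. With library totals, 8 members rose and 6 fell, the median log2 fold change of all genes moved from 0.0036 to -0.09, 1520 genes rose and 3342 fell, and the share of rises among all calls went from 54.3% to 31.3%. Changes here are therefore relative to the TMM scale. Against control library 1 alone, where the LPS libraries give the spread, 1151 genes fell and Itgav, not called, was at 0.01. The Itga5 share was higher with LPS by 25.9 to 26.2 points when 1 library was left out and by 24.99 points without division by length. The Itgam share differed by -3.43 to 0.413 points when 1 library was left out, with 0.113 without control library 2 and 0.413 without LPS library 1. A replicate block gave 9 members that rose, 2 that fell and 1 DEG, and 2454 and 2020 genes. In their deviations from the group mean, control and LPS libraries of the same number correlated at 0.131, 0.0484 and 0.0049. Those of different numbers correlated at -0.121 to 0.0772. With so few libraries centred within each group, these values cannot decide whether the numbers pair them. The causes were not tested. The filter on low counts kept 15 members out of the test, of which 13 were tested without it.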
